A study of Saccharomyces cerevisiae with 116 samples.

Results

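Translation factors are the proteins that bring ribosomes to an mRNA, move them along it and release them at its end. 41 open reading frames (ORFs) of budding yeast (Saccharomyces cerevisiae) that encode initiation, elongation and release factors were followed here, out of 6705 to 6709 ORFs counted in each table. They were chosen by their gene identity and not by a measured value, but with earlier results of these data known. All 41 were present in the 3 count tables, none was at 0 in every library of a table, and all 41 passed the filter on low counts in each fit.

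In initiation, eIF4F binds the cap of an mRNA: eIF4E (CDC33) holds the cap, the scaffold eIF4G (TIF4631 and TIF4632) joins it to the helicase eIF4A (TIF1 and TIF2), and eIF4B (TIF3) and the poly(A)-binding protein (PAB1) work with them. The complex of eIF2 (SUI2, SUI3, GCD11) with the initiator tRNA, together with eIF1, eIF1A, eIF5 and eIF3, finds the start codon, and eIF2B (GCN3, GCD7, GCD1, GCD2, GCD6) recharges eIF2 with GTP. Elongation uses eEF1A (TEF1, TEF2) and its exchange factor eEF1B, eEF2 (EFT1, EFT2), eIF5A (HYP2, ANB1) and the fungal factor eEF3 (YEF3), and SUP45 and SUP35 end translation. In growing yeast most of these factors are abundant, and their mRNAs belong to the large group of growth-related messages that is known to fall in many stresses.

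The libraries come from strain BY4741 (MATa, deleted for HIS3, LEU2, MET17 and URA3) grown in YPD for 7 to 10 generations. Cells were exposed to NaCl or to heat shock in 4 kinds of culture: treated with alpha factor (25 uM, 2 h; a mating pheromone that stops MATa cells in G1), with nocodazole (10 ug/ml, 2 h or 3.5 h; a microtubule poison that stops cells in mitosis), or with cycloheximide (labels 0.1 and 0.2, 2 h; an inhibitor of translation elongation), or growing without any of these (asynchronous). The study's title puts the question of how far growth and defence can be separated in the stress response. With added S. pombe cells as a spike, alpha factor and asynchronous cultures had 3 libraries each at 30 min of NaCl (T30) and before it (T0), and each cycloheximide label had 1 library per time. Without added S. pombe, 50 libraries covered NaCl in the 3 treatments and in asynchronous cells and heat shock in alpha factor, nocodazole and asynchronous cells, including time courses. Some T30 salt libraries carry the labels 0.5N or 0.7N and some 10 min heat libraries 33c or 37c; they were pooled with the unlabelled libraries of the same state and time. Another 50 libraries came from sucrose gradients, 9 fractions and an input each, of asynchronous cells at T30 and T0 (2 gradients each) and of alpha factor cells at T0 (1 gradient).

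S. cerevisiae counts per library ran from 1555271 to 5469230 with the S. pombe spike, from 1794997 to 7043273 without it and from 365088 to 5081617 in the gradients. CPM below is a gene's count scaled to an equal library total. LEU2, MET17 and URA3 were at 2.89 CPM or less in every library. Nothing in the labels says whether libraries of a group came from separate cultures, so p-values measure the spread between these libraries only. Some unspiked heat libraries numbered 1 stood apart for the eEF1A genes, namely T0 and t0' of alpha factor cells and T0 and T10 of nocodazole cells. In replicates 1 and 2 at T0, TEF2 was at 1927.5 and 353.8 CPM in alpha factor cells, and at 2252.9 and 379.1 CPM in nocodazole cells. Other members differed there too. In alpha factor cells at T0, replicates 1 and 2 of the heat series had 932 and 2630 counts of DED1 and 152 and 482 of TIF1. TIF11 went the other way, at 2103 and 998 counts. The totals of these 2 libraries were 4019105 and 4457208. Likewise EFT2 was higher in replicate 2 than in replicates 1 and 3 in all 4 spiked groups. TIF1 and TIF2, TEF1 and TEF2, EFT1 and EFT2, and HYP2 and ANB1 are near-identical pairs. Reads that match both copies cannot be assigned to one. How shared reads were counted is not stated by the labels, so the single values of these genes are uncertain. Their sums were tested as well in the spiked and unspiked comparisons. In the gradients no sums were tested, and only single values are given.

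Translation factor mRNA fell as a share of the transcriptome after salt, by more in asynchronous cells than in alpha factor cells. In alpha factor cells the 41 genes took 2.12%, 2.49% and 2.37% of S. cerevisiae counts at T30, against 2.83%, 3.55% and 3.16% at T0. In asynchronous cells they took 1.47%, 1.81% and 1.62% at T30, against 3.93%, 3.91% and 3.82% at T0. T30 and T0 did not overlap in either state, and every asynchronous T30 library lay below every alpha factor library. Counted per 100 S. pombe counts, the 41 genes gave 14.9, 38.9 and 33.5 in alpha factor cells at T30, against 17.1, 44.0 and 31.3 at T0, which overlap. The same ratio was 21.4, 30.9 and 19.1 in asynchronous cells at T30, against 37.3, 46.1 and 43.2 at T0, which do not. In these bulk samples a change in that ratio cannot tell a change in the number of S. cerevisiae cells from a change in RNA per cell.

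At 30 min of salt, 32 of the 41 genes were lower and 1 was higher in asynchronous cells than at T0 (edgeR's quasi-likelihood test, Benjamini-Hochberg adjusted p under 0.05 over 5744 genes). Of all genes tested, 19.6% were called lower and 22.2% higher, 41.8% in all. The members' median log2 change was -0.90, against 0.05 for all genes. In 29 of 40 members with a mean of at least 10 CPM all T30 libraries lay below all T0 libraries, as did 20.7% of all genes at that level, and for 1 they lay above, as did 32.1%. Libraries with the same replicate number deviated together in the spiked series, and with that number as a block 37 members were lower and 1 was higher (28.6% and 30.9% of all genes). Leaving out 1 library ended 5 of the 33 calls in at least 1 case. FUN12 was lost without T0 replicate 3, TEF2 without T0 replicate 2, GCD2 without T30 replicate 1 or T0 replicate 2 or 3, and ANB1 without T30 replicate 1 or T0 replicate 2. TIF1 was lost without T30 replicate 1 or 3 or T0 replicate 1 or 2.

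**Figure D1:**
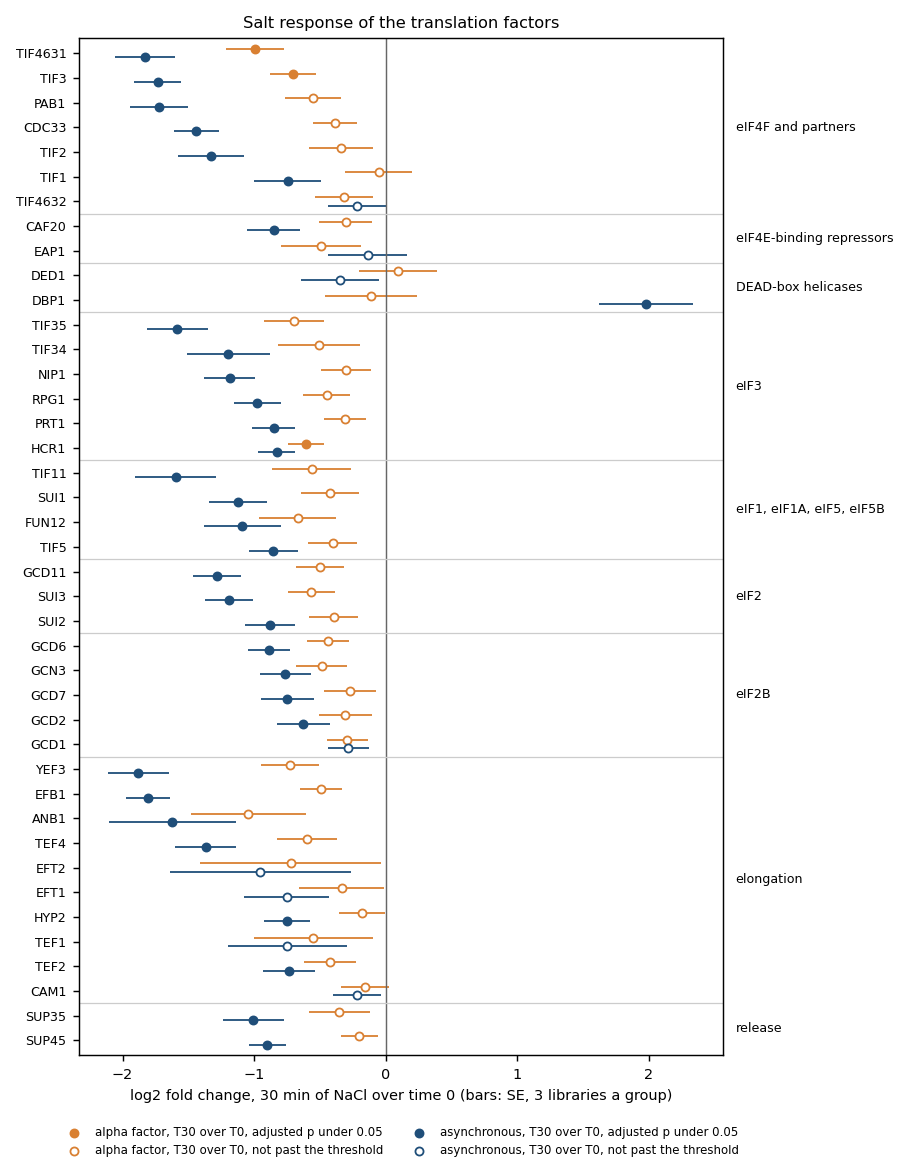
Log2 fold change of each translation factor gene at 30 min of NaCl over time 0, in alpha factor cells (orange, upper mark of each pair) and asynchronous cells (blue, lower mark), with bars for the SE of the fit and 3 libraries a group; filled marks have an adjusted p under 0.05. In asynchronous cells 32 marks are filled to the left of 0 and DBP1 alone is filled to the right; in alpha factor cells 3 are filled, TIF4631, TIF3 and HCR1.

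Of the 7 genes for the cap-binding complex eIF4F and its partners eIF4B and PAB1, 6 were called lower in asynchronous cells. Their median log2 change over all 7 was -1.44. TIF4631 (YGR162W), one of the genes for the scaffold eIF4G, was at 308.5, 547.8 and 527.2 CPM at T30, against 1158.7, 1563.1 and 1735.2 CPM at T0. Its log2 change was -1.83 (SE 0.23, edgeR adjusted p = 4.72e-05), and no T30 library reached the lowest T0 library. TIF4632 (YGL049C), the gene for the other eIF4G, did not show this. It was at 254.4, 320.1 and 394.1 CPM at T30, against 222.0, 405.4 and 394.8 CPM at T0, with a log2 change of -0.22 (SE 0.22, edgeR adjusted p = 0.46). The TIF4632 ranges overlapped between the times. TIF3 (-1.73), PAB1 (-1.72) and CDC33 (-1.44), for eIF4B, the poly(A)-binding protein and eIF4E, were called lower, with SEs of 0.17 to 0.22. Of the eIF4A genes, TIF1 was at 84.3, 98.3 and 79.1 CPM at T30, against 137.3, 146.5 and 113.2 CPM at T0, and TIF2 was at 80.4, 112.6 and 76.5 CPM at T30, against 216.4, 220.1 and 177.1 CPM at T0. Neither overlapped between the times. Summed, TIF1 plus TIF2 changed by -1.07 (SE 0.25, edgeR adjusted p = 0.0037).

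CAF20 (YOR276W) and EAP1 (YKL204W) encode repressors that compete with eIF4G for eIF4E. CAF20 was at 71.1, 68.2 and 94.5 CPM in asynchronous cells at T30, against 126.0, 134.0 and 116.1 CPM at T0, a log2 change of -0.85 (SE 0.20, edgeR adjusted p = 0.0044). EAP1 was at 87.5, 173.7 and 162.0 CPM at T30, against 82.5, 162.4 and 180.1 CPM at T0. The CAF20 ranges were apart and those of EAP1 overlapped; EAP1's log2 change of -0.14 was not called (adjusted p = 0.75).

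The helicase pair differed in level and in change. DED1 (YOR204W) encodes the DEAD-box helicase that unwinds leader sequences during scanning, and DBP1 (YPL119C) a closely related helicase. DBP1 was at 94.7, 47.3 and 73.9 CPM in asynchronous cells at T30, against 20.9, 13.7 and 14.2 CPM at T0. It was the 1 member called higher, with a log2 change of 1.98 (SE 0.36, edgeR adjusted p = 0.00072), and its lowest T30 value was above its highest T0 value. DED1 was at 669.7, 861.3 and 481.6 CPM at T30, against 897.2, 791.2 and 628.5 CPM at T0, which overlap, and was not called (log2 change -0.35, adjusted p = 0.38). Per gene length DBP1 was the lowest of the 41 in asynchronous cells at T0.

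All 6 eIF3 genes were called lower in asynchronous cells, at a median log2 change of -1.08, as were the 4 genes for eIF1, eIF1A, eIF5 and eIF5B (median -1.11) and the 3 for eIF2 (median -1.19). TIF35, an RNA-binding subunit of eIF3, was at 110.3, 148.4 and 176.2 CPM at T30, against 277.4, 452.9 and 447.9 CPM at T0 (log2 change -1.58, SE 0.23, edgeR adjusted p = 0.00015). GCD11, the GTP-binding subunit of eIF2, was at 286.5, 254.8 and 300.3 CPM at T30, against 662.1, 494.0 and 692.4 CPM at T0 (log2 change -1.29, SE 0.18). Neither gene's ranges overlapped. TIF11, for eIF1A, was at 96.3, 88.4 and 147.9 CPM at T30, against 203.4, 297.3 and 407.0 CPM at T0 (-1.60, SE 0.31, edgeR adjusted p = 0.0012), again without overlap. Of the 5 eIF2B genes 4 were lower, by a median of -0.75 on the log2 scale. GCD6, its catalytic subunit, was at 162.9, 197.4 and 240.5 CPM at T30, against 275.1, 376.3 and 347.9 CPM at T0 (-0.89, SE 0.16, edgeR adjusted p = 0.00076). GCN3, its regulatory alpha subunit, was at 36.1, 45.9 and 40.5 CPM at T30, against 62.7, 62.7 and 62.9 CPM at T0 (-0.76, adjusted p = 0.0068 by edgeR). Both were apart between the times, and GCD1 was not called at -0.28 (adjusted p = 0.17).

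The release factors eRF3 and eRF1 are encoded by SUP35 and SUP45. SUP35 was at 309.3, 423.3 and 473.2 CPM at T30, against 491.0, 827.9 and 881.7 CPM at T0, and its T30 values all lay below its T0 values. The release factor genes SUP35 and SUP45 changed by -1.01 and -0.90 (SEs 0.23 and 0.14), and both were called.

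YEF3 (YLR249W) alone made up 35.7% to 43.4% of the counts of the 41 genes in asynchronous cells at T0. It encodes eEF3, an ATPase that fungi need in each elongation cycle. YEF3 was at 4276, 5386 and 3916 CPM at T30, against 17060, 14335 and 13623 CPM at T0, a log2 change of -1.88 (SE 0.23, edgeR adjusted p = 4.16e-05). EFB1 (YAL003W), the exchange subunit of eEF1B, was at 1118.8, 1133.1 and 1325.2 CPM at T30, against 3867.2, 3855.2 and 3521.1 CPM at T0 (log2 change -1.81, SE 0.17, edgeR adjusted p = 5.21e-06). In both genes every T0 library exceeded every T30 library by more than the libraries of a group differed. Per gene length YEF3 and EFB1 were also the highest of the 41 at T0, at 5798 ± 623 and 4602 ± 177 length-scaled CPM (SD, n = 3).

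The gamma subunit of eEF1B is encoded by 2 separate genes, TEF4 and CAM1. TEF4 was at 1061.8, 1095.7 and 744.6 CPM in asynchronous cells at T30, against 2513.3, 2252.6 and 2020.1 CPM at T0 (log2 change -1.37, SE 0.23, edgeR adjusted p = 0.00043). CAM1 was at 258.9, 358.5 and 246.9 CPM at T30, against 312.1, 314.1 and 286.4 CPM at T0, and was not called (log2 change -0.22, adjusted p = 0.37). TEF4 did not overlap between times, while CAM1 did.

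In the near-identical elongation pairs, TEF1 was at 107.4, 235.4 and 406.4 CPM at T30, against 237.9, 533.3 and 344.5 CPM at T0, and TEF2 at 253.3, 314.7 and 374.9 CPM at T30, against 387.8, 567.2 and 456.2 CPM at T0. EFT1 was at 129.2, 194.3 and 97.7 CPM at T30, against 173.4, 297.8 and 180.1 CPM at T0, and EFT2 at 46.4, 175.5 and 54.0 CPM at T30, against 90.4, 303.9 and 99.5 CPM at T0. TEF1, EFT1 and EFT2 overlapped between the times and TEF2 did not. HYP2, the eIF5A gene used in air, was at 371.1, 501.1 and 381.9 CPM at T30, against 668.9, 693.9 and 538.2 CPM at T0, and ANB1 at 3.71, 5.74 and 4.5 CPM at T30, against 13.0, 18.6 and 6.83 CPM at T0, both without overlap. HYP2 plus ANB1 was called lower (-0.76, SE 0.18, edgeR adjusted p = 0.0043). TEF1 plus TEF2 (-0.74, SE 0.29, adjusted p = 0.061) and EFT1 plus EFT2 (-0.84, SE 0.46, adjusted p = 0.17) were not called in the same edgeR fit.

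**Figure D2:**
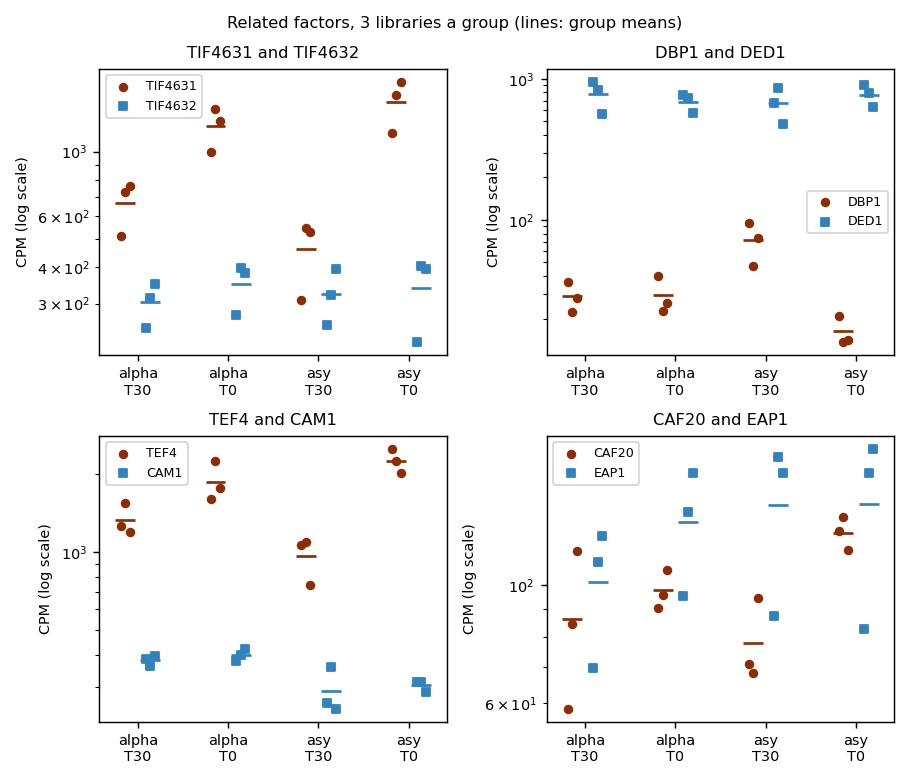
CPM (log axis) of 4 pairs of related or functionally linked factors in the spiked libraries, with alpha factor T30, alpha factor T0, asynchronous T30 and asynchronous T0 from left to right; points are the 3 libraries and lines the group means. In asynchronous cells TIF4631, TEF4 and CAF20 at T30 lie wholly below T0 and DBP1 lies wholly above it, while TIF4632, CAM1, EAP1 and DED1 overlap between the times.

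The S. pombe scale gives a different count. When libraries were scaled by their S. pombe totals, the median log2 change of all genes in asynchronous cells was 0.60 in place of 0.05, and that of the members -0.36 in place of -0.90. On it 3 members were lower, EFB1 (-1.25), YEF3 (-1.28) and TIF4631 (-1.29), and DBP1 was higher (2.55), against 3.88% of all genes lower and 21% higher. With the replicate block as well 12 were lower and 1 was higher (9.64% and 41.4% of all genes). On the S. pombe scale the fitted changes of TIF4632, EAP1, DED1, GCD1 and CAM1 turned positive, and none of the 5 was called on either scale.

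Other genes of the translation machinery moved in the same comparison. Of 138 cytosolic ribosomal protein genes 134 were lower, with a median log2 change of -1.65, of 22 cytosolic tRNA synthetase genes 21 (median -1.02), and of 33 accessory genes 19 were lower and 2 higher (median -0.89). Among the accessory genes LIA1 and DYS1, which make the hypusine residue that eIF5A needs, changed by -2.70 (SE 0.25) and -0.89 (SE 0.18), and both were called lower. HEF3, the close relative of YEF3, was called higher at 1.43 (SE 0.24, edgeR adjusted p = 0.00048). GCN2, the kinase that phosphorylates eIF2 when amino acids are short, was not called at 0.03 (adjusted p = 0.89). GCN4, whose translation is known to rise when eIF2 is limiting, was lower at -0.71 (SE 0.24, edgeR adjusted p = 0.032).

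In alpha factor cells 3 of the 41 genes were called lower after salt and none higher (3.62% and 5.47% of all genes by the edgeR test, 9.09% in all), and 16 had an unadjusted p under 0.05. The 3 were TIF4631 (log2 change -0.99, SE 0.22, adjusted p = 0.016), TIF3 (-0.70, SE 0.17, adjusted p = 0.025) and HCR1 (-0.60, SE 0.14, adjusted p = 0.017), an eIF3-associated factor. TIF4631 was at 510.8, 729.2 and 759.7 CPM at T30, against 995.2, 1400.4 and 1278.7 CPM at T0. The members' median was -0.42, against 0.00 for all genes, and 9 of 41 did not overlap between the times, all lower (10.8% of all genes lay lower without overlap). With the replicate block 22 members were lower and none higher (15.9% and 14% of all genes), and with S. pombe totals none was called in either direction (0.0348% and 4.82%), also with the block (0.888% and 17%). DESeq2 called 7. Each of these 3 calls was lost on leaving out single libraries, which left 0 calls without T0 replicate 2 or 3 and 1 without T30 replicate 1. On the S. pombe scale, where the median of all genes was 0.51 in place of 0.00, the members' median was 0.072.

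The difference between the responses was tested directly as an interaction, the alpha factor change minus the asynchronous change, in the same libraries. It was positive for 6 members and negative for 1 (3.73% and 5.07% of all genes by the edgeR test, 8.79% in all), with a median over members of 0.55. EFB1 differed by 1.32 (SE 0.23, edgeR adjusted p = 0.0060): it was at 1735.4, 2677.6 and 2486.3 CPM in alpha factor cells at T30, against 2668.9, 3126.1 and 3166.7 CPM at T0. PAB1 (1.17), YEF3 (1.15), CDC33 (1.05), TIF3 (1.03) and SUP45 (0.70) also had the smaller fall in alpha factor cells. DBP1 differed by -2.09 (SE 0.50, edgeR adjusted p = 0.022). In alpha factor cells DBP1 was at 36.6, 22.2 and 28.1 CPM at T30, against 40.4, 22.5 and 25.9 CPM at T0, which overlap. With the replicate block 22 members were positive and 1 was negative (15.7% and 15.6% of all genes). With S. pombe totals none was called (0.122% and 1.06% of all genes), and with the block as well DBP1 alone was (4% and 5.26%). Leaving out single libraries gave 2 to 8 calls. There were 2 without alpha factor T0 replicate 1 or 3, asynchronous T30 replicate 1 or asynchronous T0 replicate 2, 3 without alpha factor T30 replicate 2 or replicate 3 of either asynchronous group, and 4 without alpha factor T30 replicate 3 or asynchronous T0 replicate 1.

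Before stress, few of these genes were called between states. At T0 no member was called between alpha factor and asynchronous cells by edgeR or by DESeq2 (5 had an unadjusted p under 0.05 in edgeR), where 4.23% of all genes were lower and 8.6% higher, 12.8% in all. With the replicate block 5 members were lower and 2 higher in alpha factor cells (12.8% and 17.1% of all genes). On the S. pombe scale 1.55% of all genes were lower and 2.47% higher, or 6.96% and 4.89% with the block. DBP1 was at 40.4, 22.5 and 25.9 CPM in alpha factor cells, against 20.9, 13.7 and 14.2 CPM in asynchronous cells at T0, and CAM1 was the other gene whose alpha factor values all lay higher; 8 genes lay lower without overlap. Those shares were 17.2% and 16.1% of all genes. At T30 7 members were higher and DBP1 was lower in alpha factor cells than in asynchronous cells (7.49% and 5% of all genes, 12.5% in all). EFB1 (1.01, SE 0.16), PAB1 (0.92, SE 0.21) and TIF2 (0.84, SE 0.25) had the largest positive log2 differences of these 7. TIF2 is 1 of a near-identical pair, and TIF1 plus TIF2 was not called (0.74, SE 0.25, edgeR adjusted p = 0.070). Leaving out single libraries gave 1 to 10 calls at T30, with 1 without alpha factor T30 replicate 2 or asynchronous T30 replicate 3, 2 without asynchronous T30 replicate 1, and 4 and 5 without alpha factor T30 replicates 3 and 1. With the replicate block 26 were higher and 2 lower (20% and 17.7% of all genes), and with S. pombe totals DBP1 alone was called lower (1.01% of all genes lower and 0.888% higher, or 14% and 3.8% with the block). These comparisons share libraries with the salt comparisons above. Between nocodazole and alpha factor cells at T0, ANB1 alone was called, lower in nocodazole cells (-2.44, SE 0.54, edgeR adjusted p = 0.0070, where 4.85% of all genes were lower and 3.99% higher, 8.84% in all); ANB1, normally expressed when oxygen is low, was at 4.8 and 2.1 CPM in these nocodazole libraries, against 22.2 and 15.6 CPM in the alpha factor libraries, and the call was gone with the near-identical pairs summed and without alpha factor T0 replicate 1 or nocodazole T0 replicate 2.

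The unspiked libraries gave salt and heat in more states, each over its own T0. Salt in alpha factor cells gave 2 of 41 lower by edgeR without a replicate block (2.62% of all genes, with 3.24% higher and 5.86% in all). The 2 were TIF3 (-0.71, SE 0.20) and FUN12 (eIF5B, -0.84, SE 0.21), and the members' median was -0.37. None was left without replicate 1 of either time, T0 replicate 2 or the T30 library labelled 0.7N. In the spiked series the fit without a block called 3 lower and the blocked fit 22, with the shares of all genes given above. In nocodazole cells salt lowered 29 members (16.8% of all genes, with 14.8% higher and 31.6% in all), with a median log2 change of -0.87 and none higher; DBP1 was called higher without the libraries labelled 0.5N. After 3.5 h of nocodazole 25 were lower and none higher (14.7% and 14.1%, 28.8% in all), with a median of -0.91. With cycloheximide at the label 0.1, 28 were lower and 1 higher (17.4% and 16.3%, 33.7% in all), with a median of -0.86. Heat shock for 10 min lowered 20 members in alpha factor cells (8.24%, with 7.05% higher and 15.3% in all; median -1.03), and in nocodazole cells it lowered 25 and raised 1 (16.8% and 16.3%, 33.1% in all; median -1.35).

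The counts in these smaller groups leaned on single libraries. Salt in nocodazole gave 16 calls without T0 replicate 1, and 3.5 h of nocodazole gave 13 and 16 without replicate 1 of T0 and of T30. Cycloheximide gave 10 without T30 replicate 2, and 17 and 18 without T0 replicates 1 and 2. Heat in alpha factor cells gave 5, 10 and 9 calls without T0 replicate 1, T10 replicate 1 and the T10 library labelled 37c, and 4 with all libraries labelled 37c left out of the fit.

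YEF3 in nocodazole cells was at 2288, 3228 and 1655 CPM after salt, against 13359 and 11671 CPM at T0, a log2 change of -2.41 (SE 0.32, edgeR adjusted p = 5.1e-05). After salt in alpha factor cells it was at 6125, 6644 and 5606 CPM, against 9279 and 9368 CPM at T0. The difference between these 2 responses was not tested. The ranges were apart in both states.

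TIF4631 was called lower in 7 of the 8 stress comparisons, and TIF3 in all 8. The TIF3 calls after salt in alpha factor cells were lost in 6 of 12 alternatives with the spike and in 8 of 11 without it, among them RLE factors, no filter and the replicate block in the unspiked series. After heat in alpha factor cells the TIF3 call was lost without T0 replicate 1 and without the libraries labelled 37c. Heat lowered TIF4631 to 379.0, 494.1 and 351.4 CPM in alpha factor cells at 10 min, against 1446.6 and 1207.5 CPM at T0 (log2 change -1.65, SE 0.25). In nocodazole cells it was at 170.3, 268.6 and 151.1 CPM at 10 min, against 1448.4 and 1382.7 CPM at T0 (-2.79, SE 0.26, edgeR adjusted p = 4.2e-05). In both states the highest heated library stayed far below the lowest T0 library. TIF4632 was at 366.4, 324.6 and 297.8 CPM in heated nocodazole cells, against 349.5 and 380.3 CPM at T0, and was called in none of the 8. Among the other initiation genes, NIP1 (eIF3; -2.31, SE 0.21) and GCD11 (-2.00, SE 0.24) were called lower in heated nocodazole cells.

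DBP1 was called higher in 3 of the 8 comparisons: salt in asynchronous cells, salt in cycloheximide and heat in nocodazole. With cycloheximide at 0.1 it was at 76.0 and 62.9 CPM after salt, against 14.4 and 12.4 CPM at T0 (log2 change 2.30, SE 0.32, edgeR adjusted p = 6.7e-05). In heated nocodazole cells it was at 116.5, 74.5 and 87.4 CPM, against 29.99 and 27.7 CPM at T0 (1.75, SE 0.25). No values overlapped in either case. After salt in nocodazole cells it was at 74.2, 41.9 and 82.3 CPM, against 39.4 and 40.2 CPM at T0, and was not called (0.69, adjusted p = 0.071; 0.92 and adjusted p = 0.0060 without the libraries labelled 0.5N, by edgeR). After 3.5 h of nocodazole its log2 change of 0.77 was not called (adjusted p = 0.064), but was with RLE factors, with DESeq2 and without T30 replicate 2.

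CAF20 was lower in heated cells: 59.5, 68.2 and 64.5 CPM in alpha factor cells, against 305.3 and 114.9 CPM at T0, and 99.5, 79.0 and 52.7 CPM in nocodazole cells, against 390.5 and 149.5 CPM at T0. Its log2 changes were -1.64 and -1.75 (SE 0.44 each), and the calls were lost in 6 and 4 of 11 alternatives. Both were lost without replicate 1 of T0, the library that also had high TEF1 and TEF2 counts, and without the libraries labelled 33c or 37c. TEF1 and TEF2 themselves were not called in either heat comparison. TEF1 in alpha factor cells was at 121.1, 152.9 and 119.3 CPM at 10 min, against 1235.8 and 154.6 CPM at T0, so that its fitted change of -2.31 had an SE of 0.95.

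Over the 8 comparisons 9 members were called lower 6 times (FUN12, GCD11, GCD2, NIP1, PAB1, RPG1, SUI3, TIF35 and TIF5) and 12 were called 5 times. Together with TIF4631 and TIF3, 11 of 41 were called lower at least 6 times and 23 of 41 at least 5 times, against 5.8% and 9.01% of the 5624 genes tested in all 8. 3 genes were called lower once, CAM1, SUI1 and TEF2, and 4 never, TIF4632, EAP1, DED1 and DBP1.

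**Figure D3:**
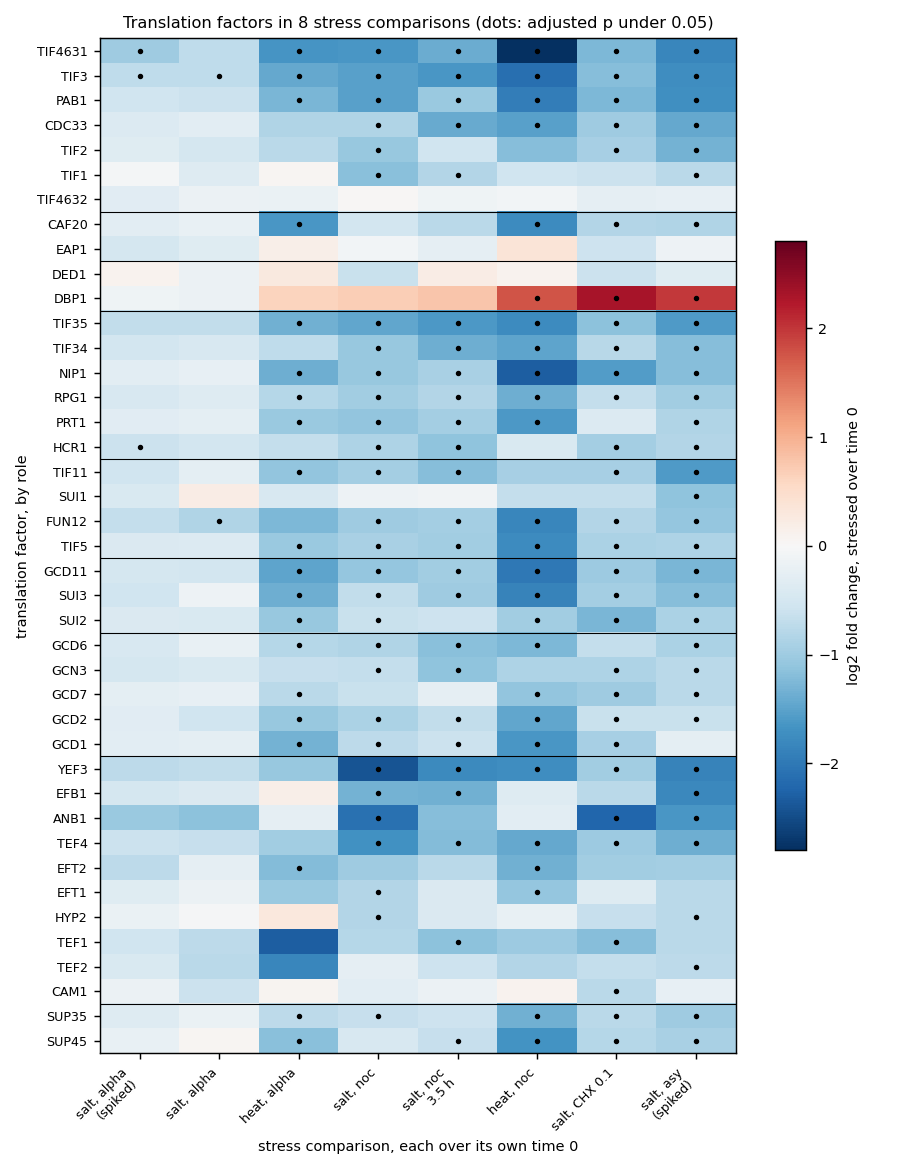
Log2 fold change of the 41 genes (rows, by role) in 8 comparisons of stressed cells over their own time 0 (columns); blue is lower and red is higher in stressed cells, and dots mark an adjusted p under 0.05. The first 2 columns, salt in alpha factor cells, hold 3 and 2 dots, and the others 20 to 33; the DBP1 row is red in 6 columns and has 3 dots.

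Comparisons with 1 library a group have no replicate check and no test. Heat shock in asynchronous cells gave 180.6 CPM of TIF4631 at 10 min, against 1633.0 CPM at T0, and 27 of 41 members were at least 2-fold lower as a share of counts (20.4% of all genes). Salt in unspiked asynchronous cells gave 25 of 41 (16.1%). Salt with cycloheximide gave 9 of 40 at the label 0.2 without the spike (12.3%), and 11 and 6 of 40 at 0.1 and 0.2 with it (13.8% and 11.8%). DBP1 was the 1 member at least 2-fold higher in each of these 5 comparisons, with log2 changes of 2.00 to 2.16. Of all genes 15.2%, 16.9%, 11.8%, 14.5% and 13.9% were at least 2-fold higher, in the order given above.

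Cycloheximide before salt, with the labels 0.1 and 0.2 pooled, gave genes on both sides of asynchronous cells. At T0 9 of 40 genes lay wholly above asynchronous cells (27.2% of all genes), among them PRT1 and NIP1 of eIF3 and GCD1, GCD6 and GCN3 of eIF2B. PRT1 was at 1026.6 and 1240.9 CPM with cycloheximide, against 682.5, 601.2 and 670.4 CPM in asynchronous cells. Another 10 lay wholly below (10.4%), among them YEF3, EFB1, TEF4 and HYP2. HYP2 was at 409.9 and 417.5 CPM with cycloheximide, against 668.9, 693.9 and 538.2 CPM in asynchronous cells. These are values of 2 libraries at different labels, and no test was run.

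The time courses, with 1 library per time and no replicate check, showed when the members were lowest; their time 0 and some later libraries are also replicate 1 of the comparisons above. In alpha factor cells under salt the members' median log2 change from time 0 was -0.34, -0.26, -0.32 and -0.40 at 15, 30, 45 and 60 min. In nocodazole cells it was -0.48, -1.07, -0.57 and -0.57, and 34 of 41 members were lowest at 30 min. How many of all genes were lowest at that time is not given. In these nocodazole libraries 6, 24, 4 and 8 members were at least 2-fold lower, against 10.9%, 15.8%, 10.9% and 9.4% of all genes. Under salt the nocodazole series had its lowest median at 30 min and a higher one after it. Under heat the medians were -1.14, -0.91, -0.72 and -0.74 at 10, 20, 30 and 40 min in alpha factor cells, and -1.59, -1.49, -1.36 and -1.21 in nocodazole cells. Both heat series are set against replicate 1 of T0, the libraries that stood apart for some members. All genes had medians between -0.24 and 0.26 at these times.

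Single factors kept different times. TIF4631 in heated nocodazole cells changed by -3.09, -2.49, -1.99 and -1.53 on the log2 scale at 10, 20, 30 and 40 min, lowest at the first time. YEF3 changed there by -2.51, -3.40, -2.92 and -2.44, lowest at 20 min, and CAF20 by -1.97, -3.19, -2.94 and -3.04. The CAF20 values are set against the T0 library that stood apart, at 390.5 CPM, where the other T0 library had 149.5 CPM and t0' had 175.04 CPM. DBP1 stayed up, at 1.95, 1.59, 1.76 and 1.66. Under salt in nocodazole DBP1 was highest at 15 min, at 1.43, with 0.91, 0.49 and 0.13 at 30, 45 and 60 min.

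**Figure D4:**
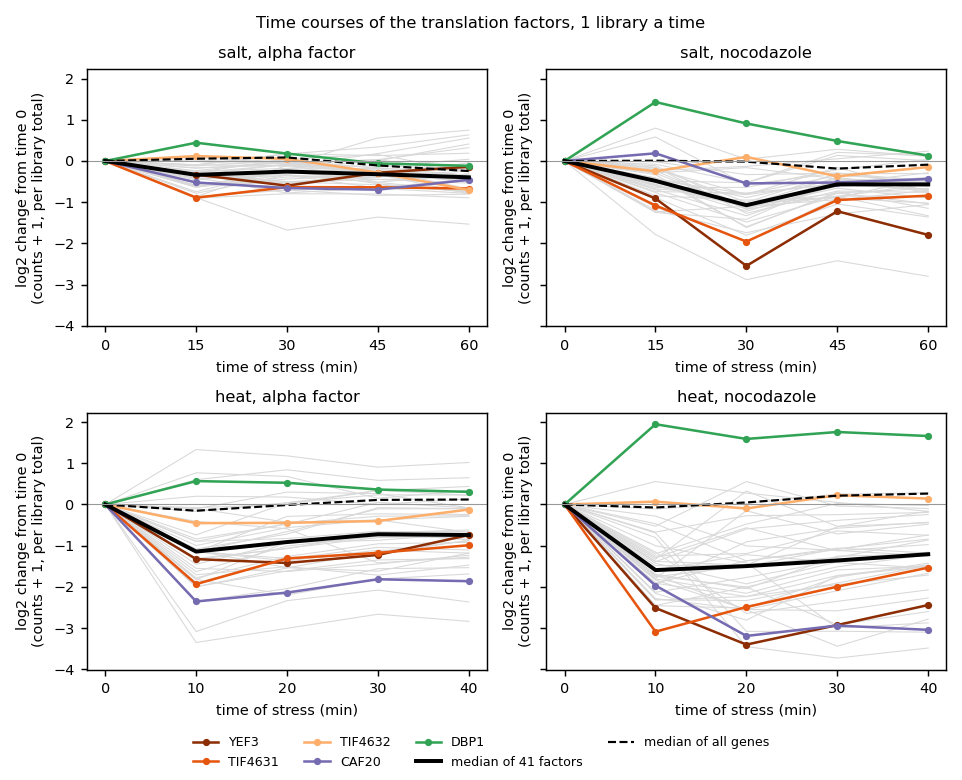
Log2 change from time 0 of each of the 41 genes (grey), with YEF3, TIF4631, TIF4632, CAF20 and DBP1 in colour, the members' median in black and the median of all genes dashed, by minutes of salt or heat shock in alpha factor and nocodazole cells; each point is 1 library. The members' median lies below the dashed line at every time after 0, down to -1.07 in salted and -1.59 in heated nocodazole cells.

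In every gradient, the median elongation factor mRNA had more of its counts in polysomal fractions than the median initiation factor mRNA. The measure is the percentage of an mRNA's counts, scaled by added S. pombe RNA, found in the fractions labelled 2R and above. For the 10 elongation genes the median was 78.6% and 67.3% in the asynchronous T30 gradients, against 73.2% and 63.6% at T0, and 76.1% in alpha factor cells at T0. For the initiation genes it was 43.9% and 28.3% at T30, against 34.7% and 26.3% at T0, and 47.8% in alpha factor cells. For all 41 genes it was 50.9% and 32.7% at T30, against 44.6% and 38.2% at T0, and 55.0% in alpha factor cells. All genes had 32.0% and 23.2% at T30, against 24.6% and 20.02% at T0, and 37.4% in alpha factor cells. A high share was not particular to elongation genes. The 138 cytosolic ribosomal protein genes had medians of 69.1% and 62.8% at T30, against 67.3% and 62.6% at T0, and 74.4% in alpha factor cells. Percentages within a gradient share its fractions and scaling, and the replicate gradients at T30 differed more in the members' median than T30 did from T0.

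TEF2 (YBR118W) and TEF1 (YPR080W), for eEF1A, were among the top 5 of the 41 in every gradient. TEF2 had 88.7% and 82.8% in polysomal fractions at T30, against 90.3% and 88.5% at T0, and 88.4% in alpha factor cells at T0. By the T0 polysome ratio, the log2 ratio of counts in those fractions to counts in the lighter ones, TEF2 stood at the 99.98th and TEF1 at the 99.80th percentile of 5053 genes. TEF1 and TEF2 are near-identical, so these single values and ranks are uncertain. At asynchronous T0 TEF1 and TEF2 averaged 1918.6 and 2185.6 CPM in the gradient inputs, but 371.9 and 470.4 CPM in the spiked libraries. At the other end GCD2, a subunit of eIF2B, had 15.1% and 11.5% at T30, against 11.5% and 9.99% at T0, with 62.1% and 60.1% of its T0 counts in the RNP fraction. GCD2, TIF4632 and EAP1 were in the lowest 4 of the 41 in every gradient.

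Genes with a shared function could differ in where their mRNA lay. CAF20 had 66.6% and 63.5% in polysomal fractions at T30, against 50.03% and 49.97% at T0, and EAP1 had 25.0% and 13.5%, against 16.3% and 12.5% at T0. TIF1 had 82.1% and 71.4% at T30, against 60.2% and 63.8% at T0. TIF2, which encodes the same protein, had 42.6% and 27.6%, against 29.7% and 32.6% at T0. TIF1 and TIF2 are near-identical, and their single values are uncertain. At asynchronous T0 they averaged 605.5 and 217.7 CPM in the gradient inputs, but 132.3 and 204.6 CPM in the spiked libraries. Whether the counting of shared reads set their polysomal shares apart was not tested. TIF4631 was above TIF4632 in each gradient, at 29.4% and 17.5% against 19.9% and 12.5% at T30. The order within each of these pairs was the same in all 5 gradients.

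With fractions on the S. pombe scale, none of 41 was called in polysome ratio in asynchronous cells at T30 over T0 (limma, adjusted p under 0.05 over 5053 genes; 2.32% of all genes were called, 2.16% higher and 0.158% lower), and 1 had an unadjusted p under 0.05, ANB1 (log2 change 1.46, adjusted p = 0.12). The members' median change was 0.17, against 0.36 for all genes. In 6 genes both T30 gradients lay above both T0 gradients, TIF1, CAF20, TIF11, YEF3, ANB1 and SUP45, and in TEF1 below (35.7% and 5.34% of all genes). YEF3 had 72.2% and 58.3% at T30, against 54.8% and 48.0% at T0, and TEF1 had 78.6% and 68.7%, against 84.6% and 80.3% at T0. The heaviest fraction over input gave no call in 41 members or in 5348 genes by edgeR (0% of genes; 5 members with an unadjusted p under 0.05), and DESeq2 called no member. With S. cerevisiae totals in place of the S. pombe scale 6 members were called higher and 3 lower in polysome ratio (28.4% and 3.19% of all genes), and 2 were called without T30 gradient 2.

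**Figure D5:**
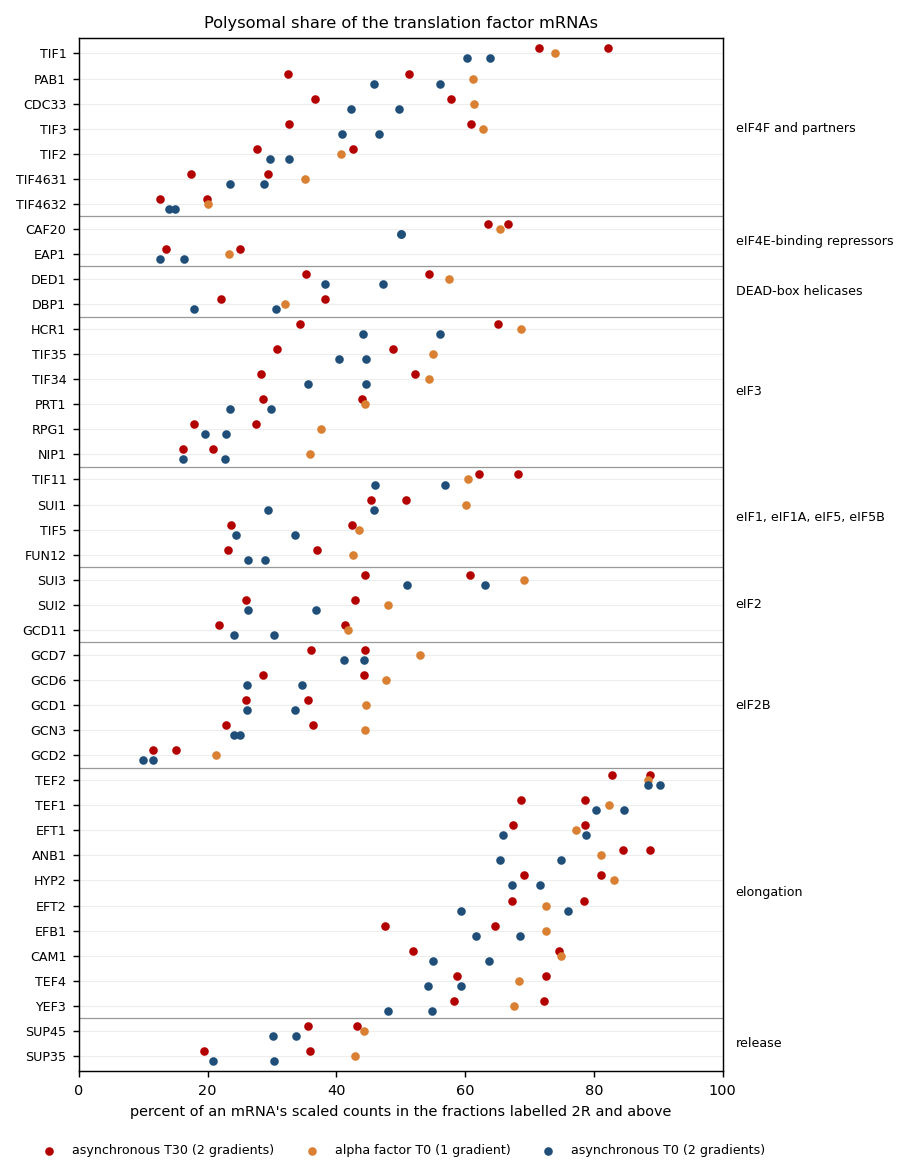
Percentage of each mRNA's scaled counts in the gradient fractions labelled 2R and above, for asynchronous T30 (red, 2 gradients), alpha factor T0 (orange, 1 gradient) and asynchronous T0 (blue, 2 gradients), by role. The elongation genes lie between 47.6% and 90.3%, TEF2 highest in asynchronous and alpha factor cells at T0, and GCD2, TIF4632 and EAP1 lie at 25.0% or less in all 5 gradients.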

How the data were processed

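The series holds 116 sequencing libraries. Per the labels' protocols, RNA libraries were depleted of ribosomal RNA and made with ScriptSeq v2, and gradient libraries with TruSeq Stranded Total RNA. The authors deposited unnormalized read counts for each ORF, with S. pombe features beside them. Trimmomatic 0.32, Bowtie2 and HTSeq 0.6.1 are named in the submitters' processing notes. The labels state neither the build, the annotation nor whether counting used strand. 70 deposited columns were not used, and rows that name no gene took at most 0.0055% of a library.

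Libraries were grouped by the labels' state, stress and time. The labels 0.5N, 0.7N and no dose at T30, and 33c, 37c and no temperature at T10, were pooled as 1 group. Counts were filtered with filterByExpr, scaled by TMM and tested in edgeR 4.0.16 (R 4.3.3) with two-sided quasi-likelihood F tests over all genes, in 4 fits of 16, 22, 12 and 8 libraries. A p-value is called adjusted by Benjamini-Hochberg, with a threshold of 0.05. Polysome ratios (offset 1 read in the deepest library) were compared with limma 3.58.1. Length-scaled levels divide counts by gene length in RefSeq R64 and are rescaled like CPM. The fits were checked on simulated data. Alternatives were RLE factors, no filter, DESeq2 1.42.0, S. pombe totals, a replicate block, summed near-identical pairs and leaving out each library. Alternatives with the S. pombe scale and block together, crossed blocks and summed pairs were chosen after seeing the data.

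Any member could be named; values in every library are given at least for the largest change of each role, both genes of each pair, CAF20, EAP1 and GCN3, and members called against the common direction. The 41 members and the other gene lists were chosen with earlier results of these data known. In the spiked series residuals of libraries with the same replicate number correlated at 0.313 to 0.706 (18 pairs, median 0.597), so the numbers pair those samples. With different numbers they correlated at -0.652 to 0.184 (36 pairs, median -0.276). Residuals within a group depend on each other, so these negative values are no separate support for the pairing.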

Additional observations from a re-analysis of the deposited data

Results flagged for a closer look

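The salt response differed between alpha factor and asynchronous cells for 7 translation factors by the interaction test in edgeR (Benjamini-Hochberg adjusted p under 0.05, 3 libraries in each of 4 groups). The alpha factor change minus the asynchronous change was 1.32 on the log2 scale for EFB1, 1.17 for PAB1, 1.15 for YEF3, 1.05 for CDC33, 1.03 for TIF3 and 0.70 for SUP45, and -2.09 for DBP1. For the first 6 the fitted change was negative in both states and nearer 0 in alpha factor cells. DBP1 changed by 1.98 in asynchronous cells, where it was called, and by -0.11 in alpha factor cells, where it was not. Over 18 alternatives EFB1 lost its call in 2, CDC33 in 3, DBP1 in 6, PAB1 in 9, TIF3 in 10, YEF3 in 12 and SUP45 in 15; with S. pombe totals as library sizes all 7 were lost.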

How the results depend on the processing

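Counts of members called that moved by over 1.5 times were as follows. For DESeq2, RLE factors, no filter and left-out libraries the share of all genes is not given, so those counts have no background. Salt in asynchronous cells (33 called) gave 4 with S. pombe totals and 13 with S. pombe totals and the replicate block. Salt in alpha factor cells (3) gave 7 with DESeq2, 22 with the replicate block, and 0 with S. pombe totals with or without the block, where the members' median log2 change turned to 0.072 and, with the block, 0.044. The interaction (7) gave 23 with the replicate block, 0 with S. pombe totals and 1 with both. Alpha factor against asynchronous cells gave 7 at T0 (0 without the block) and 28 at T30 (8) with the replicate block, and at T30 14 with DESeq2 and 1 with S. pombe totals with or without the block. Unspiked salt in alpha factor cells (2) gave 1 with RLE factors, 1 without the filter, 5 with DESeq2, 1 with the replicate block and 0 without the libraries labelled 0.7N. Salt in nocodazole (29) gave 18 without 0.7N, heat in alpha factor cells (20) gave 4 without 37c, and nocodazole against alpha factor at T0 (1) gave 0 with pairs summed. Polysome ratios (0) gave 9 with S. cerevisiae totals and 2 with the replicate block, ANB1 and TIF1, both higher. The cause was not tested. Crossed pairing changed neither count it was run for (1 for nocodazole against alpha factor, 0 for the heaviest fraction). The blocked fit kept other counts within 1.5 times, with DBP1 called higher for salt in nocodazole.

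Leaving out each library in turn gave 29 to 34 for salt in asynchronous cells, 0 to 3 in alpha factor cells, 2 to 8 for the interaction, 0 to 0 for alpha factor against asynchronous cells at T0 and 1 to 10 at T30. It gave 0 to 2 for unspiked alpha factor salt, 16 to 31 for nocodazole, 13 to 21 for 3.5 h of nocodazole, 10 to 23 for cycloheximide, 0 to 1 for nocodazole against alpha factor at T0, 5 to 16 and 20 to 29 for heat in alpha factor and nocodazole cells, 0 to 0 for the heaviest fraction and 0 to 2 for the polysome ratio. Where a group kept 1 library, it was assumed to vary like the others. Over all single-member values and alternatives, 5896 kept their side of the threshold, 429 fell short of it, 153 passed it and 0 called values turned sign. Direction was compared only for values called in the main fit. Uncalled values that turned sign and stayed uncalled are among the 5896.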

Other observations

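The libraries labelled t0', whose meaning the labels do not state, were used in no comparison. The 41 genes took 4.12% and 4.40% of counts there in the alpha factor series for salt and heat, and 4.20% and 3.996% in the nocodazole series. DBP1 was at 13.2, 22.6, 15.7 and 13.4 CPM in the same 4 libraries, against 39.6, 60.7, 39.4 and 29.99 CPM at time 0 of each series. YEF3 was at 15669, 15085, 18579 and 14862 CPM there, against 9279, 8955, 13359 and 15171 CPM at time 0. Each value is 1 library.

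GCN4, the activator whose translation is known to depend on eIF2 activity, was called higher in polysome ratio after salt in asynchronous cells (log2 change 1.72, SE 0.46, limma adjusted p = 0.011). Of all 5053 genes tested 117 were called. That share is so low that 0 calls in 41 members does not set the members apart from all genes.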
